A study of Mus musculus with 28 samples.

Results

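The genes described here are 42 genes of the G1/S transition and of DNA replication, taken by symbol from 23382 listed genes. By role they are 11 origin licensing genes, 5 helicase activation genes, 12 replication fork genes, 4 nucleotide supply genes, 4 chromatin and histone supply genes, and 6 E2F and cyclin E genes. All 42 were found in every library and passed the filter on low values in every comparison. Their transcripts were measured by RNA-seq in germinal center B cells of mice, in 28 libraries of 6 groups, as CPM (reads scaled to the total of each library).

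All groups carried 1 copy of Cg1Cre, a Cre recombinase active in B cells that respond to antigen. The D370Y group had the genotype Tbl1xr1 D370Y/WT (n = 5), and its control, called WT, had Tbl1xr1 WT/WT (n = 3). A second pair of groups also carried ImuBCL6, in which a heavy-chain promoter of the immunoglobulin locus drives Bcl6, with Tbl1xr1 D370Y/WT (ImuBcl6 D370Y, n = 5) or WT/WT (ImuBcl6, n = 5). The last pair was labelled Tbl1xr1 KO/KO (n = 5) and Cre control (n = 5). The Cre control shares its genotype label with WT, but a stranded TruSeq kit is named only for the KO and Cre control libraries. The labels give no age, animal or day of preparation, so that p-values reflect only how far these libraries differ from each other, whether for technical or other reasons. TBL1XR1 is a subunit of the SMRT/NCOR corepressor complex.

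Before a cell enters S phase, the origin recognition complex and CDC6 load the MCM helicase onto DNA. CDC45, the GINS complex and MCM10 then help to turn it into an active helicase, and polymerases, clamp, clamp loader and ligase copy both strands. Most of these genes are transcribed under E2F control. E2F1 and E2F2 are classed as activators, whereas E2F7 and E2F8 are repressors that are themselves E2F targets and limit the wave of G1/S transcription. Germinal center B cells are among the fastest dividing cells of the body.

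The DNA just upstream of the start was read for these genes, because it shows where the E2F consensus lies in their promoters. The search used TTTGGCGC, TTTGCCGC, TTTCGCGC and TTTCCCGC on either strand, in the 250 bases before each RefSeq start (GRCm38.p6). RefSeq promoter entries matched 36 of the 42 members. Of these, 10 (27.8%) held at least 1 match, among them Orc1, Mcm5, Mcm6, Mcm7, Gins3, Pola1 and Rfc3. The share was 2.16% of all 27025 genes with an entry and 4.46% of the 7079 genes at 1 CPM or more in every library. A second motif, CCAAT, was present in 23 members (63.9%), against 37.5% and 41.6%. Of the 7 members called lower with an allele in the results that follow, 6 had an entry (Pole was not searched), and E2f7, Uhrf1 and Cdc6 held the E2F motif. Each is printed with 11 bases on either side, 5′ to 3′ on the plus strand, with the match in capitals.
E2f7, chr10:110745230-110745259: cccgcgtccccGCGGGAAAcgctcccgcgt
Uhrf1, chr17:56304117-56304146: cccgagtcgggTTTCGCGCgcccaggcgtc
Cdc6, chr11:98908002-98908031: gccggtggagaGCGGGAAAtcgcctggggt
In E2f7 and Cdc6 the match is TTTCCCGC on the minus strand. Uhrf1 had 2 entries, of which 1 held the motif. The Uhrf1 and Cdc6 stretches lie before a RefSeq start but inside the GENCODE gene coordinates given below. A match is a description of these letters and not a measurement of binding.

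Between 19.0 and 37.7 M reads per library fell on listed genes, so that 3 reads were worth 0.0640 to 0.133 CPM. KO replicate 3 stood apart, with 64.4% of its CPM denominator on listed genes against 78.7% to 84.6% in the other 27. Tbl1xr1 itself stood at 102 ± 15.4 CPM (SD, n = 5) in the libraries labelled KO and 86.0 ± 5.82 (n = 5) in the Cre control, so that the transcript was not lower in the libraries labelled KO. A sum over the whole gene can miss a deleted exon. All 5 D370Y libraries expressed Xist and all 3 WT libraries the Y-linked genes, with the reverse in the ImuBcl6 pair, so that sex and genotype cannot be told apart within either pair taken alone. KO had 2 libraries with Xist above the Y-linked Ddx3y, replicate 3 among them, and 3 with the reverse. Cre control had 4 and 1, so that sex was unevenly spread in this pair too. All 12 germinal center B cell markers were detected in every group, and some differed between groups, as did markers of other cells (values are given beside the other gene lists).

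The members were abundant. Divided by the length of the principal transcript, the highest mean level in WT cells was that of Mcm6, a helicase subunit, at 300.8 CPM per kb. It was followed by the helicase subunits Mcm5 at 209 and Mcm3 at 203.6 CPM per kb and by the clamp Pcna at 197. The lowest were E2f7 at 6.28 and the origin recognition subunit Orc1 at 7.33 CPM per kb. The order differed in Cre control cells, where Mcm5 led at 346.1 CPM per kb, followed by Pcna at 267.8 and Mcm3 at 267.7. The same groups differed in Ccne2, one of the E-type cyclins, at 26.3 CPM per kb in WT and 5.35 in Cre control cells. These groups share a genotype label and differ in their protocol text.

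As a description of each library, the 42 members' log2(CPM + 1) values were set against each gene's mean over the 28 libraries and averaged. This mean was -0.26 to -0.03 in the 5 D370Y libraries and -0.02 to 0.01 in the 3 WT libraries. It was -0.03 to 0.08 in ImuBcl6 D370Y and 0.09 to 0.13 in ImuBcl6. In the KO group it was 0.01 to 0.12 in 4 libraries and -0.36 in replicate 3, with 0.00 to 0.07 in the Cre control. The first 2 pairs did not overlap, and the third did. With CPM recomputed over listed genes the D370Y and WT libraries overlapped (-0.23 to -0.04 against -0.07 to -0.03). D370Y replicates 4 and 5 lay apart from the other 3 D370Y libraries, at -0.26 and -0.21, and held the lowest value of the group for 24 and 15 members. In these bulk libraries fewer dividing cells and less RNA per cell cannot be told apart.

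**Figure D1:**
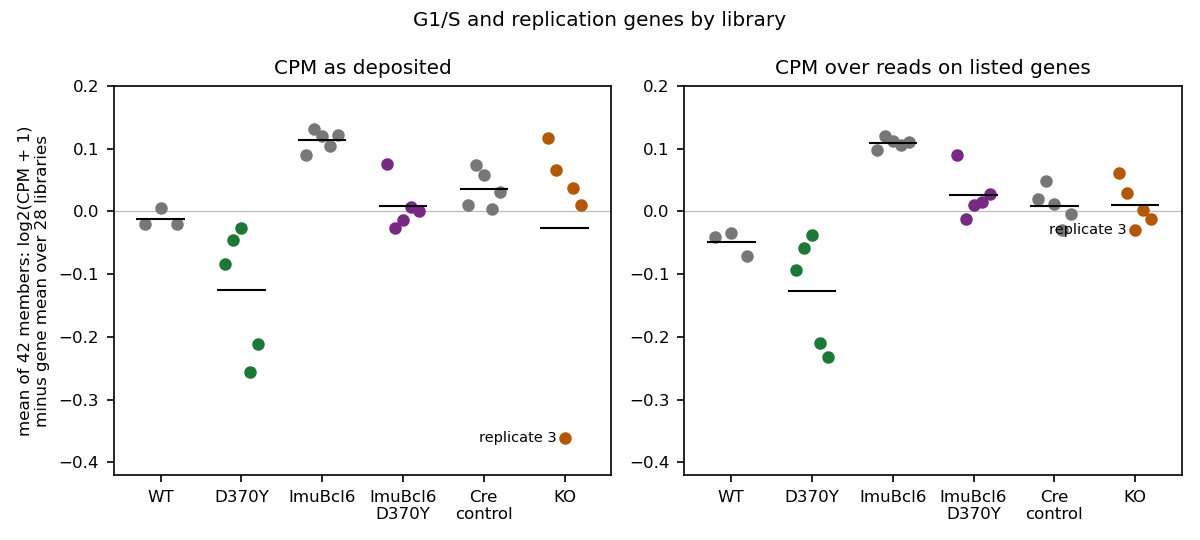
Mean of the 42 members per library (y axis: log2(CPM + 1) minus each gene's mean over 28 libraries), for CPM as deposited (left) and CPM recomputed over listed genes (right). Points are libraries and lines are group means; KO replicate 3 lies at -0.36 on the left and at -0.03 on the right.

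The first comparison asked what D370Y changed in cells without ImuBCL6. No member passed the test, against 3.55% of the 10600 genes tested, 2.6% higher and 0.943% lower (limma, Benjamini-Hochberg adjusted p below 0.05). At an unadjusted p below 0.05 there were 9 members, all lower, against 1941 of the 10600 genes in either direction. DESeq2 called 1, Slbp, and edgeR called 0 (1.88% and 0.774% of all genes were called lower by them). Point estimates lay below 0 for 39 of 42 members, with a median log2 fold change of -0.12, against -0.02 over all genes tested. In the fit of all 28 libraries with sex as a term the members' median was 0.020 and that of all genes 0.079. Sex varied only within KO and Cre control, so that its term rested on those groups, KO replicate 3 included. All 11 licensing genes had estimates below 0. Those above 0 were Rpa2, a subunit of the single-strand binding protein, Tk1, which salvages thymidine, and Ccne1.

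The libraries of the 2 groups did not overlap for 9 members, all lower in D370Y (21.4% of the members, against 7.27% of all genes lower and 7.5% higher). These were Cdc6, Mcm2, Mcm4, Cdc45, Pcna, Rrm1, Slbp, Uhrf1 and E2f8. Slbp, which binds the stem-loop of histone mRNAs, was at 224.5, 226.2, 240.6, 200.2 and 221.3 CPM in D370Y and at 254.4, 253 and 262 CPM in WT. Its log2 fold change was -0.21 ± 0.07 (SE; limma adjusted p = 0.125). Pola1, the catalytic subunit of DNA polymerase alpha and an X-linked gene, had the smallest adjusted p of any member (-0.26 ± 0.08, limma adjusted p = 0.105). Its libraries overlapped, at 162.1 to 202.7 CPM in D370Y and 201.9 to 236.8 in WT.

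The second comparison asked the same on the ImuBCL6 background. With D370Y 6 members were lower and none higher. They were the repressors E2f8 and E2f7, the helicase activator Mcm10, the polymerase epsilon subunit Pole, the hemimethylated-DNA reader Uhrf1 and the MCM loader Cdc6. These are 14.3% of the members, against 5.38% of the 10784 genes tested that were called lower, 2.8% higher and 8.18% in either direction. Estimates were below 0 for 33 members, with a median of -0.11 against -0.01 over all genes. An unadjusted p below 0.05 was reached by 17 members and by 2580 of the 10784 genes. DESeq2 called 7 members, the same 6 and Chaf1a, a subunit of the histone chaperone CAF-1, while edgeR called 4 (E2f8, Pole, Mcm10 and Uhrf1). Of all genes, 6.99% and 4.32% were called lower by DESeq2 and edgeR.

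E2f8 (chromosome 7, 48866429 to 48881596, minus strand) fell the most. It was at 110.2, 100.7, 109.5, 114.7 and 113.4 CPM in ImuBcl6 D370Y and at 152, 141.2, 152.6, 138.7 and 140.6 CPM in ImuBcl6. The highest mutant library was below the lowest control. The log2 fold change was -0.40 ± 0.05 (SE; limma adjusted p = 0.00142, lower in 5 of 5 libraries). Its relative E2f7 (chromosome 10, 110745439 to 110787384, plus strand) was at 26.8, 20.1, 20.2, 25.0 and 27.7 CPM against 35.9, 32.9, 34.0, 29.5 and 25.9 CPM. ImuBcl6 replicate 5 lay within the range of the mutant libraries. The log2 fold change of E2f7 was -0.39 ± 0.11 (SE; limma adjusted p = 0.0456).

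The activators and cyclins of the same role did not pass the test. E2f1 (-0.14 ± 0.06 SE) and E2f2 (-0.13 ± 0.06) had estimates below 0, and the E-type cyclins Ccne1 (0.02 ± 0.07) and Ccne2 (0.07 ± 0.18) had estimates above 0.

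Mcm10 (chromosome 2, 4989714 to 5012791, minus strand) was at 127.6, 126.6, 126.2, 129.7 and 119.6 CPM in the mutant libraries and at 138, 151.1, 147.7, 145.3 and 150.4 CPM in the controls. The groups did not overlap, and its log2 fold change was -0.22 ± 0.05 (SE; limma adjusted p = 0.0171). Cdc45, its partner in helicase activation, also separated the groups (140.8 to 157 against 157.8 to 174.6 CPM) without passing the test (-0.14 ± 0.05, limma adjusted p = 0.124). Of the GINS subunits, Gins1 and Gins2 had estimates above 0 and Gins3 below.

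Pole (chromosome 5, 110286306 to 110337474, plus strand) was at 170.3, 171.7, 174.8, 181.8 and 179.8 CPM against 223.7, 209.4, 205.7, 205.5 and 201.3 CPM. Every mutant library was below every control (log2 fold change -0.25 ± 0.05 SE, limma adjusted p = 0.00864). The other replicative polymerase subunits, Pold1 (-0.24 ± 0.11), Pola1 (-0.29 ± 0.19) and Pola2 (-0.16 ± 0.06), did not pass. In ImuBcl6 replicate 1, Pold1 stood at 161.2 CPM, against 223.2 to 233.3 in the other 4 controls. Without that library Pold1 passed (-0.34, limma adjusted p = 0.0194).

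Uhrf1 (chromosome 17, 56303321 to 56323486, plus strand), which recruits DNMT1 to newly copied DNA, was at 349.6, 325.2, 338.5, 373.4 and 332.1 CPM against 354, 421.2, 431.6, 419 and 442.1 CPM. ImuBcl6 replicate 1 was the one control inside the mutant range. The log2 fold change was -0.26 ± 0.07 (SE; limma adjusted p = 0.0266). Cdc6 (chromosome 11, 98907801 to 98923940, plus strand) was at 112.1, 107.5, 112.8, 117 and 114.7 CPM against 122.2, 122.1, 136.8, 127.5 and 139.5 CPM. The groups were apart, by -0.20 ± 0.06 on the log2 scale (SE; limma adjusted p = 0.0448).

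Among the 6 genes of the MCM ring the estimates ran from -0.17 (Mcm3) to -0.08 (Mcm6), and none passed. No nucleotide supply gene passed either. Rrm2, the regulated subunit of ribonucleotide reductase (chromosome 12, 24708241 to 24714146, plus strand), was at 321.4 to 347.7 CPM in the mutant and 352.5 to 367.1 CPM in the control libraries. These ranges did not overlap, but the difference was small (-0.11 ± 0.04 SE, limma adjusted p = 0.142). In all, 6 members separated the groups downward (14.3%, against 5.64% of all genes), and none upward (3.32% of all genes).

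**Figure D2:**
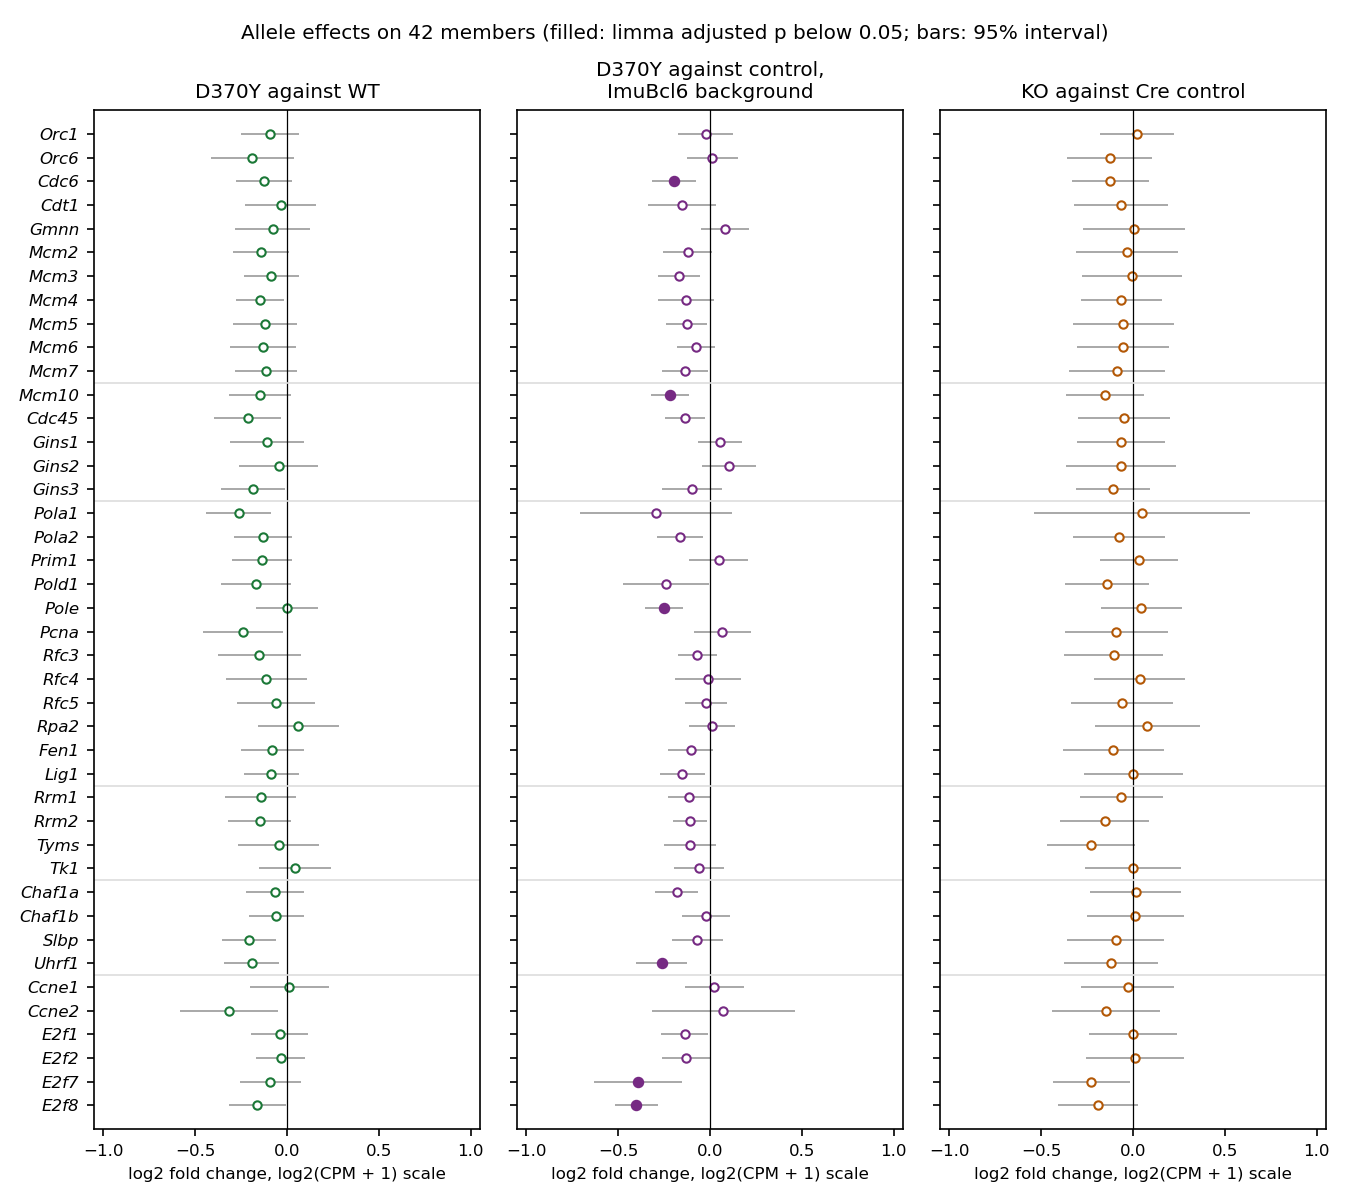
Log2 fold change of each of the 42 members with its 95% interval (x axis, log2(CPM + 1) scale) in the 3 comparisons of an allele with its own control, ordered by role with lines between roles. Filled points passed the test; all 6 are in the middle panel, to the left of 0.

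These 6 calls differ in how firmly they stand. E2f8, Pole and Mcm10 passed whichever single library was left out, although Mcm10 did not in a fit of all 28 libraries (adjusted p = 0.0638), while Uhrf1 passed in 11, E2f7 in 8 and Cdc6 in 4 of 20 alternatives. Cdc6 was lost on leaving out any library but ImuBcl6 replicate 1. The count of members called was 3 without replicate 2 or without replicate 3 of ImuBcl6 D370Y, and also without any of replicates 2, 3 and 4 of ImuBcl6, but 9 without its replicate 1. With sex as a term in that fit, resting on the KO and Cre control libraries, no member passed (limma, against 1.51% of all genes lower). Adjusted p was 0.061 for E2f8, 0.239 for Mcm10 and 0.555 for Pole, with estimates of -0.37, -0.22 and -0.10, and the members' median was -0.24. Over all genes, 34.2% of the calls in this comparison were higher, and 44.7% with CPM recomputed over listed genes. There 4 members were called, all lower, against 4.1% of all genes tested called lower.

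**Figure D3:**
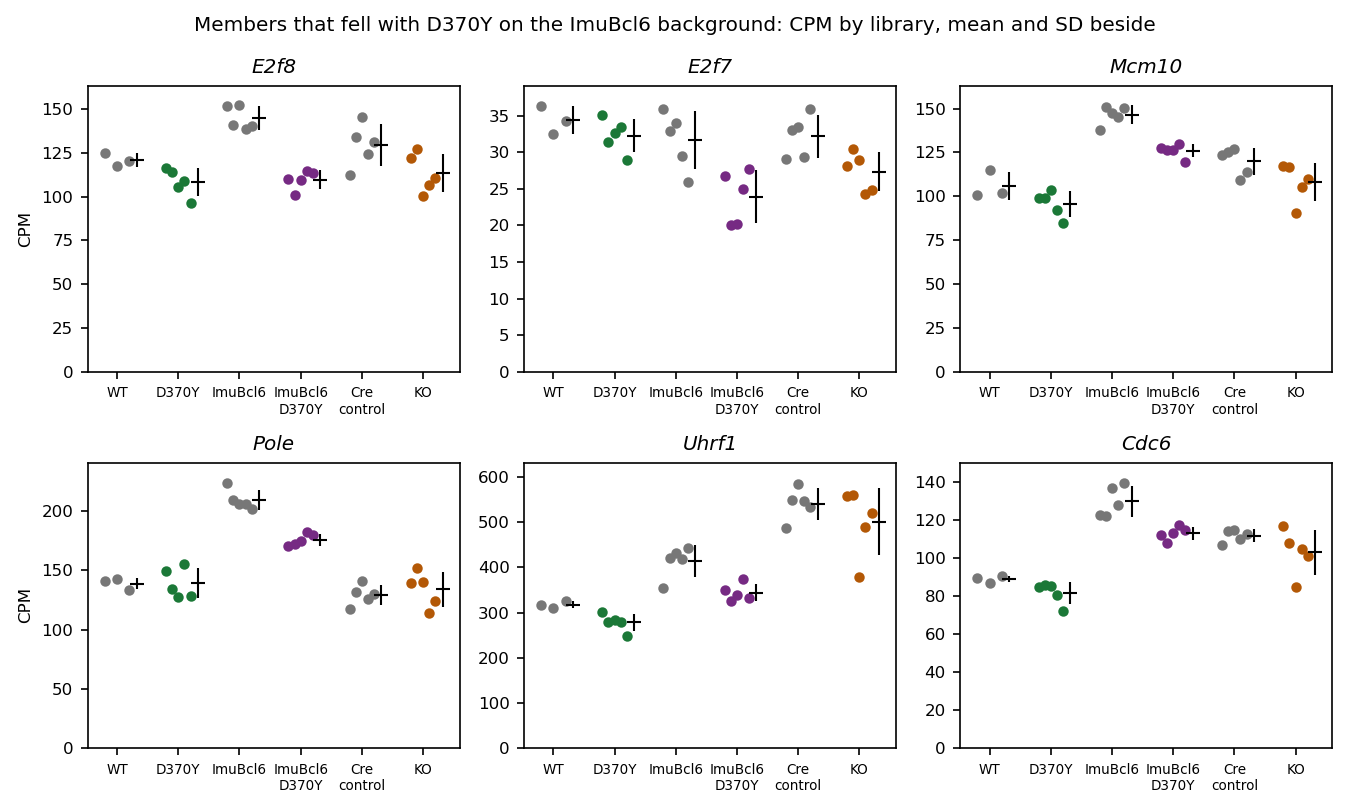
CPM of the 6 members that fell with D370Y on the ImuBCL6 background (y axis, starting at 0) in all 6 groups. Points are libraries, with the mean and SD beside them; for E2f8 the ImuBcl6 D370Y libraries lie at 100.7 to 114.7 CPM, below all 5 ImuBcl6 libraries.

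Whether the D370Y effect differed between backgrounds was tested directly. No member passed, against 0.663% of the 11166 genes tested, 0.0896% higher and 0.573% lower (limma), with 0 called by edgeR or DESeq2. Against 1376 of all genes tested, 3 members reached an unadjusted p below 0.05. These were Pole (difference of log2 fold changes, with minus without ImuBCL6, -0.25, 95% interval -0.43 to -0.07), E2f8 (-0.24, -0.42 to -0.06) and Pcna (0.31, 0.04 to 0.57). Pole was at 127 to 155.4 CPM in D370Y and 133.5 to 142.3 CPM in WT cells, a log2 fold change of 0.00 ± 0.08 (SE). E2f8 was at 116.3, 114.1, 105.5, 109.1 and 96.2 CPM in D370Y and 125, 117.7 and 120.1 CPM in WT, a log2 fold change of -0.16 ± 0.07 (SE; limma adjusted p = 0.258).

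The third comparison was of the libraries labelled KO with the Cre control. No member passed, against 1.39% of the 10514 genes tested, 0.476% higher and 0.913% lower (limma). Of all genes called, 34.2% were higher, and 48.5% with CPM recomputed over listed genes. E2f7 alone of the members reached an unadjusted p below 0.05, against 951 of all genes tested, and edgeR and DESeq2 called 0 members. No member separated the groups, against 3.49% of all genes lower and 0.742% higher. Estimates were below 0 for 30 members, and their median of -0.06 equalled that of all genes at this precision.

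The picture turned on KO replicate 3. It held the lowest CPM of its group for 38 of the 42 members and the highest for Pola1 and Ccne2. For Mcm5 it was at 800.8 CPM, against 1170 to 1273 in the other 4 KO libraries. Pola1 stood at 94.9 CPM against 31.4 to 49.5 CPM in the other 4 and 38.6 to 53.4 in the Cre control (a gene singled out after its values were seen). With CPM recomputed over listed genes, replicate 3 was lowest for 23 members and highest for 8.

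Without that library the members' median was 0.04, against 0.00 over all genes, and 13 rather than 30 members had estimates below 0. Then 1 member passed. Rpa2 was at 162, 143.9, 164.2 and 157.4 CPM in the other 4 KO libraries and at 125.7 to 141.9 CPM in the Cre control. It was higher in each of these 4 than in any control (0.22 ± 0.05 SE, limma adjusted p = 0.0321; 2.21% of all genes were called higher and 2.05% lower without the library). Of these KO libraries replicate 2 alone had Xist above Ddx3y, against 4 of 5 in the Cre control. The part of sex in this call was not tested. With all 5 libraries Rpa2 did not pass (0.08 ± 0.14, limma adjusted p = 0.913), and replicate 3 was at 93.3 CPM.

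Both E2F repressors had estimates below 0 with and without replicate 3. E2f7 was at 28.1, 30.4, 28.9, 24.3 and 24.9 CPM in KO and 29, 33, 33.5, 29.4 and 35.9 CPM in the Cre control, ranges that overlapped. Its log2 fold change was -0.23 ± 0.10 (limma adjusted p = 0.475), and -0.25 ± 0.08 without replicate 3 (limma adjusted p = 0.126). E2f8 gave -0.19 ± 0.10 and -0.15 ± 0.07 (limma adjusted p = 0.665 and 0.319). Mcm10, Cdc6, Uhrf1 and other members also had estimates below 0 in both fits. Mcm10 moved from -0.15 to -0.09, Cdc6 from -0.12 to -0.06 and Uhrf1 from -0.12 to -0.02. No difference between members was tested.

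**Figure D4:**
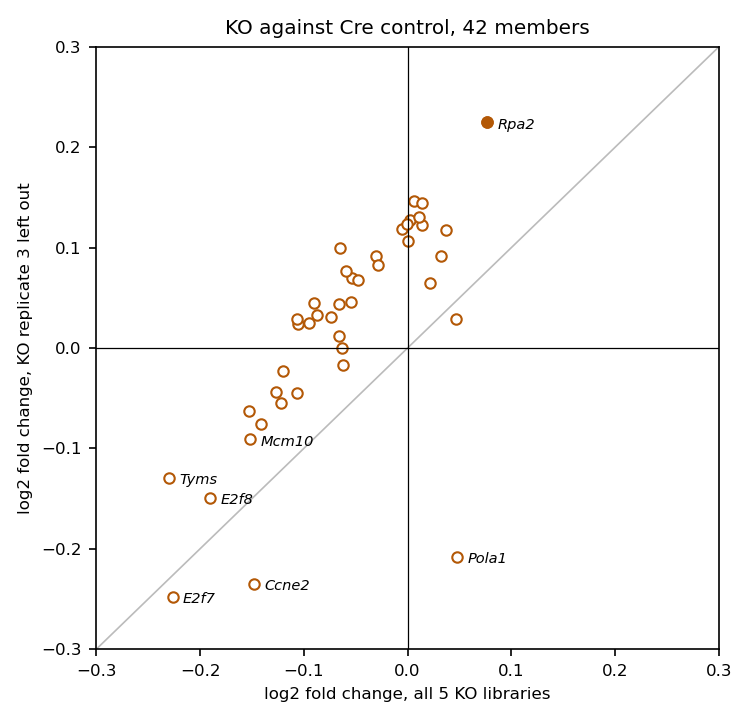
Log2 fold change of the 42 members in KO against Cre control with all 5 KO libraries (x axis) and with KO replicate 3 left out (y axis). Most points lie above the grey line of equal values, Pola1 lies far below it, and Rpa2 (filled) is the one member that passed without replicate 3.

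Differences between the KO effect and either D370Y effect were tested as well. No member passed for KO minus D370Y (0.145% of 11041 genes were called by limma, 0.0272% higher and 0.118% lower, and 0 members reached an unadjusted p below 0.05) or for KO minus ImuBcl6 D370Y (0.118% of 11010 genes, 0.0727% higher and 0.0454% lower, and 1 member, Pole). Of all genes tested, 678 and 730 reached an unadjusted p below 0.05. Neither edgeR nor DESeq2 called a member in these comparisons. For Pole the KO effect exceeded the ImuBcl6 D370Y effect by 0.30 (95% interval 0.07 to 0.52, limma adjusted p = 0.574).

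The 3 comparisons of an allele with its control share no library, and their mean was estimated in a fit of all 28 libraries. On average 6 members fell and none rose (14.3%, against 7.74% of the 11312 genes tested called lower, 5.27% higher and 13.0% in either direction). They were E2f8 (-0.25 ± 0.04 SE, limma adjusted p = 0.000194), E2f7 (-0.24 ± 0.06, adjusted p = 0.00539), Mcm10 (-0.17 ± 0.04, 0.00739), Uhrf1 (-0.19 ± 0.05, 0.0119), Cdc6 (-0.15 ± 0.04, 0.02) and Pold1 (-0.18 ± 0.06, 0.0451). Estimates were below 0 for 39 members, with a median of -0.10 against -0.02 over all genes. E2f8 and E2f7 passed in all 38 alternatives, the fits with sex as a term and without KO replicate 3 included. Mcm10, Uhrf1 and Cdc6 passed in 37, and were lost with the replicate number as a block (limma adjusted p = 0.0689, 0.0794 and 0.121).

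Pold1 (chromosome 7, 44532746 to 44548849, minus strand), the catalytic subunit of DNA polymerase delta, joined the list only in the mean. It was at 233.8, 202.1, 216.5, 247.1 and 186.9 CPM in D370Y and 251.4, 250.1 and 228.2 in WT. In the ImuBCL6 pair it was at 184.5, 173.8, 152.6, 185.5 and 213.1 CPM with D370Y and 161.2, 233.3, 223.2, 230.5 and 229.4 without. In KO it was at 359.2, 380.5, 282.8, 337.2 and 345 CPM, against 332.3, 380.8, 421.8, 372.3 and 369.5 in the Cre control. All 3 pairs overlapped, and the call held in 14 of 38 alternatives. Over all genes 40.5% of the calls in the mean were higher, and 59.7% with CPM recomputed over listed genes. There 6 members passed, all lower, with Rrm2 in place of Pold1, against 6.01% of all genes tested called lower.

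Of 63 other pathway genes found of 64 listed, chosen for their place in licensing, elongation, nucleotide supply or E2F control, few passed in the 3 comparisons. Lower with D370Y were Rrm2b, the p53-inducible small subunit of ribonucleotide reductase (-0.49 ± 0.10 SE, limma adjusted p = 0.0211), and Skp2, the ubiquitin ligase subunit that targets p27 (-0.33 ± 0.07, 0.0294), and none was higher (0.943% of all genes were lower and 2.6% higher). On the ImuBCL6 background 6 fell and 1 rose (5.38% and 2.8% of all genes). Those that fell included Dnmt1, the maintenance methyltransferase that works with UHRF1 (-0.31 ± 0.06, limma adjusted p = 0.00589), the histone chaperone Asf1b (-0.20 ± 0.05, 0.021), the checkpoint mediator Clspn (-0.27 ± 0.07, 0.0247) and the S phase kinase Cdk2 (-0.24 ± 0.06, 0.0295). The riser was Tk2, the mitochondrial thymidine kinase (0.33 ± 0.07, 0.0148). In KO, 1 fell, Rrm2b (-0.42 ± 0.10, limma adjusted p = 0.0409), and none rose (0.913% and 0.476% of all genes).

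Genes of mitosis were read beside the members. Of 24 G2/M genes, 0, 4 and 0 were lower and none higher in the 3 comparisons (limma), where 0.943%, 5.38% and 0.913% of all genes were lower. Their median log2 fold changes were -0.12, -0.13 and -0.08, those of the members -0.12, -0.11 and -0.06, and those of all genes -0.02, -0.01 and -0.06. No test separated the replication genes from these.

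Markers of germinal center and other cells also differed. Of all genes tested, 0.943%, 5.38% and 0.913% were called lower in the 3 comparisons, and 2.6%, 2.8% and 0.476% higher. Of the 12 germinal center markers 2, 3 and 1 were lower and none higher in the 3 comparisons (limma). Gcet2 was lower without overlap in each, at 304 to 456.7 against 500.7 to 553.7 CPM for D370Y, 202.4 to 351.1 against 418.3 to 455.4 CPM for ImuBcl6 D370Y, and 169.4 to 232.8 against 285.2 to 331 CPM for KO. Of the plasma cell markers tested 2 of 8, 1 of 7 and 0 of 8 were higher and none lower. Those higher in D370Y were Irf4 (75.7 to 106.3 against 58.5 to 61.2 CPM) and Prdm1 (14.5 to 37.6 against 8.6 to 14.8 CPM, ranges that overlapped). Of the myeloid markers tested, 5 of 9 were higher with D370Y and 5 of 7 on the ImuBCL6 background, and 0 of 10 passed in KO. Their summed level over 13 genes was 42.5 to 58.4 CPM in D370Y and 18.5 to 26.5 in WT, and 36.8 to 59.9 against 20.7 to 25.8 CPM in the ImuBCL6 pair. T cell markers summed to 377.8 to 461.1 CPM in ImuBcl6 D370Y and 343 to 450.6 in ImuBcl6, with 2 of 3 tested higher. These were Cd2 and Cd3g, the latter at 3.09 to 9.12 against 0.333 to 2.09 CPM, while Cd3e was at 0.479 CPM or less in every library. Lck, the third, had the lower range in ImuBcl6 D370Y, at 191.7 to 251.7 against 220.8 to 303.8 CPM, ranges that overlapped. Cd2 and Lck made up most of the sum. Erythroid markers summed to 3.22 to 46.3 CPM in KO and 2.87 to 9.72 in the Cre control. The highest sum was that of KO replicate 4 alone, where the erythroid marker Beta-s was at 41.5 CPM. In the other KO libraries Beta-s was at 2.55 to 8.13 CPM. The part of these markers' cells in the members' values was not tested.

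Last, ImuBCL6 cells were set against WT cells, both with unmutated Tbl1xr1. ImuBcl6 had 20 members higher and 4 lower (47.6% and 9.52%, against 24.7% and 28.6% of the 10889 genes tested by limma). With CPM recomputed over listed genes 23 were higher and 3 lower, against 3043 and 2802 of the 11079 genes tested. The rises were led by the helicase subunit Mcm7 (0.76 ± 0.06 SE), Tk1 (0.63 ± 0.07), Pole (0.59 ± 0.06), the clamp loader subunit Rfc5 (0.56 ± 0.06), Cdc6 (0.54 ± 0.06) and thymidylate synthase Tyms (0.50 ± 0.08). Mcm7 was at 419.6, 455.9, 439.9, 450 and 481 CPM in ImuBcl6 and 270.2, 269.3 and 253.3 CPM in WT, with a wide gap between the groups. Of the chromatin genes 3 of 4 rose, namely both CAF-1 subunits, Chaf1a and Chaf1b, and Uhrf1.

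The 4 that fell were Ccne2, Pola1, the GINS subunit Gins3 and the origin recognition subunit Orc6. Ccne2 was at 44.2, 38.2, 42.4, 30.2 and 27 CPM in ImuBcl6 and 73.3, 73.4 and 90.1 CPM in WT (-1.11 ± 0.15 SE, limma adjusted p = 0.000154). Pola1 was at 172.4, 146.7, 146.1, 106.6 and 93.6 CPM against 201.9, 216.3 and 236.8 CPM (-0.74 ± 0.17, limma adjusted p = 0.00391). For both genes every ImuBcl6 library was below every WT library. In all, 20 members separated the groups upward and 6 downward (24.2% and 28.1% of all genes did so).

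Calls differed among members that act together, although no difference between them was tested. In the MCM ring Mcm3, Mcm5, Mcm6 and Mcm7 rose, while Mcm2 (0.17 ± 0.07 SE) and Mcm4 (-0.15 ± 0.07) did not pass. In polymerase alpha-primase Pola2 rose (0.17 ± 0.06, limma adjusted p = 0.0481), Pola1 fell, and Prim1 (-0.12 ± 0.08) did not pass. Of the E-type cyclins Ccne1 rose (0.45 ± 0.07) and Ccne2 fell.

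These groups differed in more than the allele. Reads on listed genes were 31.8 to 36.5 M per library in ImuBcl6 and 19.0 to 19.4 M in WT. All 5 ImuBcl6 libraries expressed Xist and all 3 WT libraries the Y-linked genes. Handling stress genes such as Fos and Jun summed to 466.8 to 686.5 CPM against 210.6 to 230.8 CPM, with 8 of 11 higher in ImuBcl6. Of all genes tested, 53.3% were called, 24.7% higher and 28.6% lower. Several of these members also differed between Cre control and WT cells, which share a genotype label. Means in Cre control and WT cells were 498.2 and 264.3 CPM for Mcm7, 111.5 and 62.85 for Tk1, and 125.8 and 97.4 for Rfc5. For Cdc6 they were 111.5 and 88.8 CPM, for Tyms 72.8 and 60.2, and for Pole, the other way, 129.1 and 138.7. Ccne2 was at 16.1 and 79.0 CPM, and Pola1 at 44.9 and 218.4. The part of sex, handling, read depth or preparation in the members' values was not tested.

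**Figure D5:**
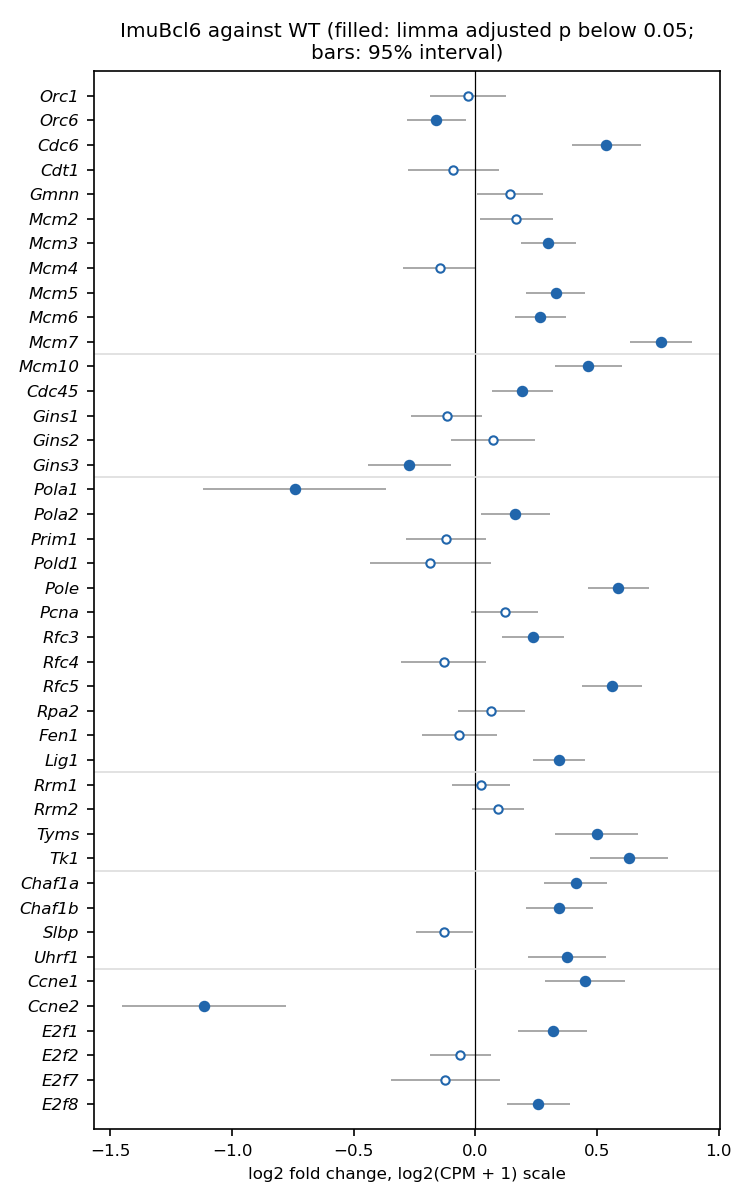
Log2 fold change of the 42 members in ImuBcl6 against WT with 95% intervals (x axis, log2(CPM + 1) scale), ordered by role. Filled points passed the test: 20 lie above 0, led by Mcm7 at 0.76, and 4 below, led by Ccne2 at -1.11.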

How the data were processed

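Per the submitters' processing notes reads were aligned with STAR to mm10. The sources used here do not state how reads were counted, on which strand or with which annotation, so reads of overlapping genes could have been shared. The authors deposited CPM per gene symbol for each library. Dividing by the value of 1 read gave whole numbers (within 0.01 of a read) for 100% of values, so reads were recovered for edgeR (4.0.16) and DESeq2 (1.42.0) as alternatives. Over all genes these called 358 and 659 genes in D370Y against WT (limma 376), 793 and 1378 in the ImuBCL6 pair (882), 238 and 455 in KO against Cre control (146), and 5632 and 5884 in ImuBcl6 against WT (5802). The denominator of the deposited CPM also counts reads outside the list. No 2 libraries of the same group agreed within sampling noise (chi-square per degree of freedom at least 3.65).

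log2(CPM + 1) was fitted with limma (3.58.1, R 4.3.3; trend, robust), on genes at 1 CPM or more in as many libraries as the smallest group. The threshold for a call was 0.05 on two-sided p-values after Benjamini-Hochberg adjustment over all genes tested. The fits were tried on simulated data. Fold changes on this scale understate those of low genes. Transcript lengths and gene coordinates are from GENCODE M21 (GRCm38, the assembly of mm10). Values in every library are given for members called in an allele comparison or in the mean, and for the best member of a role without one. Pclaf was found as 2810417H13Rik, and Ticrr was not used here. The members and lists were chosen with earlier results of these data known. Most same-numbered replicates did not correlate best with each other.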

Additional observations from a re-analysis of the deposited data

Results flagged for a closer look

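In groups of 5 libraries, 27 of 210 member-and-group sets had their highest or lowest library farther from the rest than Dixon's 95% critical value of 0.71 allows; chance alone gives about 1 in 20. Of these, 16 were in KO replicate 3. It was lowest at 520.5 CPM for Mcm2, 572.4 CPM for Mcm3, 800.8 CPM for Mcm5, 546.9 CPM for Mcm6, 335.9 CPM for Mcm7. Further members lowest there were Gins1 at 25 CPM, Gins3 at 17.8 CPM, Pcna at 261.8 CPM, Rpa2 at 93.3 CPM, Fen1 at 169.6 CPM. The rest lowest there were Lig1 at 312.2 CPM, Tk1 at 78.6 CPM, Chaf1b at 75.1 CPM, E2f1 at 76 CPM, E2f2 at 234.5 CPM. It was highest for Pola1, at 94.9 CPM.

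ImuBcl6 replicate 1 was the lowest library for Mcm2 at 492.9 CPM (others 574.2 to 600.7), Pold1 at 161.2 CPM (others 223.2 to 233.3), Uhrf1 at 354 CPM (others 419 to 442.1). Cre control replicate 3 was the highest library for Mcm7 at 530.9 CPM (others 486.1 to 492.7). ImuBcl6 replicate 5 was the highest library for Cdc45 at 174.6 CPM (others 157.8 to 160.5), Ccne1 at 66.1 CPM (others 57.1 to 59.1). ImuBcl6 D370Y replicate 1 was the highest library for Rfc3 at 152.9 CPM (others 136.9 to 139.5). ImuBcl6 replicate 4 was the lowest library for Rrm2 at 352.5 CPM (others 363.6 to 367.1). Cre control replicate 1 was the lowest library for Rrm2 at 301.1 CPM (others 335 to 347.8), Slbp at 225.1 CPM (others 248.3 to 256.2). D370Y replicate 4 was the lowest library for Tyms at 45.6 CPM (others 59.6 to 64.7).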

How the results depend on the processing

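No member call in the 3 allele comparisons or their mean changed direction under the alternatives run. Calls in ImuBcl6 against WT were not followed gene by gene. The count of members called in D370Y against WT was 1 with DESeq2 and 2 with estimated library weights (Pola1 and Pold1), all lower. On the ImuBCL6 background it was 10 with library weights and 3 in a fit of all 28 libraries, all lower. There it was 0 with sex as a term, and 3 to 9 when 1 library was left out. In KO it was 2 with library weights (1 higher and 1 lower), and 0 to 1 when 1 library was left out. With CPM over listed genes and KO replicate 3 out (chosen after seeing the data) it was 1, higher. KO minus ImuBcl6 D370Y gave 2 with library weights, both higher. The mean of the 3 effects gave 10 with TMM scaling, 11 with DESeq2 and 12 with library weights (1 higher and 11 lower). It gave 5 to 7 when 1 library was left out. With TMM scaling and DESeq2 all members called were lower, against 8.925% and 9.49% of all genes called lower. Shares of all genes called with library weights, or in most fits with 1 library left out, are not given here. Those counts of members therefore have no share to be read against.

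The fit with sex moved the members' median to 0.0203 in D370Y against WT, -0.24 on the ImuBCL6 background, -0.28 for the D370Y effect with minus without ImuBCL6, -0.15 for KO minus D370Y and 0.36 in ImuBcl6 against WT; that of all genes moved to 0.08, -0.09, -0.19, -0.18 and 0.06. The median in ImuBcl6 against WT was 0.19 with CPM over listed genes, 0.18 with edgeR or DESeq2, and 0.13 to 0.18 when 1 library was left out. The cause of these shifts was not tested. In the fit with sex that term rested on the KO and Cre control libraries, where alone sex varied within a group. With a replicate block the median was -0.031 in D370Y against WT, 0.12 in ImuBcl6 against WT and -0.085 for the D370Y effect with minus without ImuBCL6, and the mean of the 3 effects gave 2 members (E2f8 and E2f7). The replicate numbers are not stated to mark animals or days. Same-numbered libraries correlated from -0.26 to 0.50. Of these, 4 of 16 correlated best with their own number, as many as random numbering would give on average. The lowest value of any member in any library rested on 404 reads.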
